A study of Mus musculus with 8 samples.

Results

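Isolated sites were defined by position alone, as accessible sites on chromosomes 1 to 19 whose nearest neighbouring site lay over 100 kb away on both sides. The rule found 652 such sites, 0.841% of the 77553 sites on these chromosomes and part of a table of 79758 sites in all. Another 2205 sites lay on chromosome X or unplaced contigs, where the rule does not apply. Chromosome ends held 7 more sites that had a neighbour on 1 side only, over 100 kb away, and these were not counted as members.

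The assay was ATAC-seq, which reads out open chromatin through a transposase that cuts accessible DNA and leaves sequencing adapters behind. It was run on mouse regulatory T (Treg) cells, from spleen together with lymph nodes, taken by sorting from chimeras with mixed bone marrow. The 4 groups had 2 libraries each: Pggt1b-deficient eTreg, WT eTreg, Pggt1b-deficient cTreg and WT cTreg cells. All groups thus come from chimeras, and the labels give neither age, strain, the allele or driver behind the deficiency, nor the cells the host still had. They also do not tie libraries to single chimeras, so variation between the 2 libraries of a group may be technical. The p-values for single sites rest on that variation, estimated over all 4 groups and with information shared across sites. The permutation p-values instead compare 4 libraries with 4, each side made of 2 groups.

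Treg cells restrain immune responses. Central (cTreg) cells recirculate through lymphoid organs, and effector (eTreg) cells are the activated subset that carries out suppression in tissues and follicles. Pggt1b codes for the catalytic chain of the enzyme GGTase-I, which attaches a geranylgeranyl lipid to its substrate proteins so that they can reach membranes. Accessible sites usually crowd around active genes and their enhancers. A site far from any other can be a lone promoter, a distal enhancer, a boundary element or a weakly open stretch in a gene-poor region, and position alone does not say which. The genome tables at hand belong to another build than the deposited coordinates (mm9), so sites carry no gene names, no DNA sequence was read, and neither the subset labels nor the genotype could be checked at marker genes or at Pggt1b.

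Library totals ran from 1664702 to 14974253 counts. Both Pggt1b-deficient eTreg libraries were the shallowest and a WT eTreg library was the deepest, so the median isolated site held 4 and 3 counts in Pggt1b-deficient eTreg and 25 and 37 in WT eTreg libraries. In cTreg libraries it held 9 and 9 counts in Pggt1b-deficient and 20 and 20 in WT cells. No count was found at 19.5% and 24.8% of isolated sites in Pggt1b-deficient eTreg libraries, against 1.07% and 0.767% in WT eTreg libraries. The same share was 10.4% and 8.13% in Pggt1b-deficient cTreg libraries and 2.91% and 3.68% in WT cTreg libraries. Small folds at weak sites were therefore least detectable in Pggt1b-deficient eTreg cells.

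Most isolated sites were narrow and weak, and a small number were broad and strong. Widths ran from 1 to 1668 bp with a median of 71.5 bp, against 104 bp at the other 76901 sites of chromosomes 1 to 19. Up to 100 bp wide were 417 isolated sites (64%), against 48.7% of other sites. Another 208 (31.9%) were wider than 100 bp but under 500 bp, and 27 (4.14%) were 500 bp or wider, against 8.28% of other sites. Level here is the mean of the 4 group means in CPM, that is counts scaled to a common library size with TMM factors. The median level was 1.21 CPM in the narrowest class, 4.78 CPM in the middle class and 72.6 CPM in the widest class. Over all members the median level was 1.96 CPM, against 3.65 CPM at other sites. At the strong end the shares were close: 11 isolated sites (1.69%) and 1438 other sites (1.87%) exceeded 100 CPM.

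**Figure D1:**
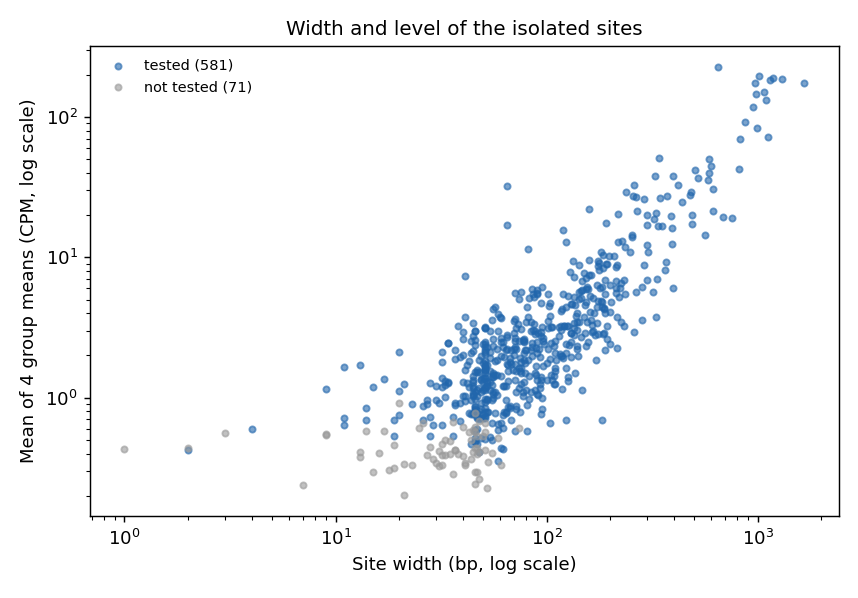
Width (x axis, bp, log scale) and level (y axis, mean of 4 group means in CPM, log scale) of the 652 isolated sites, 1 point per site, with the 581 tested and the 71 untested sites in different colours. Level goes up with width, and the site of 65 bp at 32.3 CPM stands above the other sites of up to 100 bp, of which the next reached 16.9 CPM.

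The distance to the nearest site had a median of 171 kb and reached 3117 kb among isolated sites. For all sites of chromosomes 1 to 19 the median was 546 bp. The distance exceeded 500 kb at 71 isolated sites. An adjacent site that was itself isolated was found for 269 (41.3%) of the members, on both sides for 31 of them. The longest run held 4 isolated sites, on chromosome 12 between 19294331 and 20821720. Every chromosome had isolated sites, from 0.655% of the sites of chromosome 4 to 1.2% of those of chromosome 14.

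At the limit of 100 kb, the 3 members with the smallest distance were chr4:98289127-98289173 (100175 bp), chr1:58252530-58252706 (100557 bp) and chr13:102705991-102706083 (100885 bp), with levels of 0.583, 9.43 and 2.21 CPM. Just short of it lay chr13:10343649-10343843 (99982 bp), chr3:87212297-87212373 (99865 bp) and chr18:74123127-74123260 (99819 bp), with levels of 23, 2.98 and 5.02 CPM. The levels on the 2 sides of the limit overlapped.

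Isolated sites took a larger part of the accessible signal in eTreg than in cTreg cells. They held 0.515% and 0.493% of all counts in the Pggt1b-deficient eTreg libraries and 0.559% and 0.576% in the WT eTreg libraries. In cTreg cells they held 0.397% and 0.411% of counts in the Pggt1b-deficient libraries and 0.466% and 0.464% in the WT libraries. All 4 eTreg libraries lay above all 4 cTreg libraries, and within each subset both Pggt1b-deficient libraries lay below both WT libraries. In bulk libraries a site open in more cells and a site more open in each cell cannot be told apart.

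The eTreg share averaged 0.536% ± 0.0383 and the cTreg share 0.435% ± 0.0359 (SD, n = 4 each), a difference of 0.101 percentage points (two-sided exact permutation test, p = 0.0286, the smallest that 4 against 4 libraries can give). Leaving out any 1 library kept the difference between 0.0876 and 0.115, at p = 0.0571, the smallest exact p that 4 against 3 libraries can give. Without the 10 strongest members, a setting added after the data were seen, the share was 0.347% in eTreg and 0.272% in cTreg libraries (exact permutation p = 0.0286). Pggt1b-deficient libraries averaged 0.454% ± 0.0588 and WT libraries 0.516% ± 0.0593 (SD, n = 4 each), a difference of -0.0623 points that did not pass the two-sided exact permutation test (p = 0.171). That test pools subsets whose shares differ, and for 2 against 2 libraries within a subset the smallest possible exact p is 0.333.

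The level of the median isolated site gave the same order of groups. The median CPM of isolated sites divided by the median CPM of other sites was 0.5 and 0.5 in Pggt1b-deficient eTreg libraries and 0.658 and 0.685 in WT eTreg libraries. It was 0.281 and 0.346 in Pggt1b-deficient cTreg libraries and 0.435 and 0.426 in WT cTreg libraries. In the Pggt1b-deficient eTreg libraries the medians were only 4 and 3 counts at isolated sites and 8 and 6 at other sites. A shift of 1 count moves those ratios by a large step, so the place of this group is coarse. Over the 8 libraries the ratio averaged 0.479 ± 0.14 (SD). The median of the other sites lay between 3.52 and 3.72 CPM in all libraries, and that of isolated sites between 1.01 and 2.51 CPM.

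**Figure D2:**
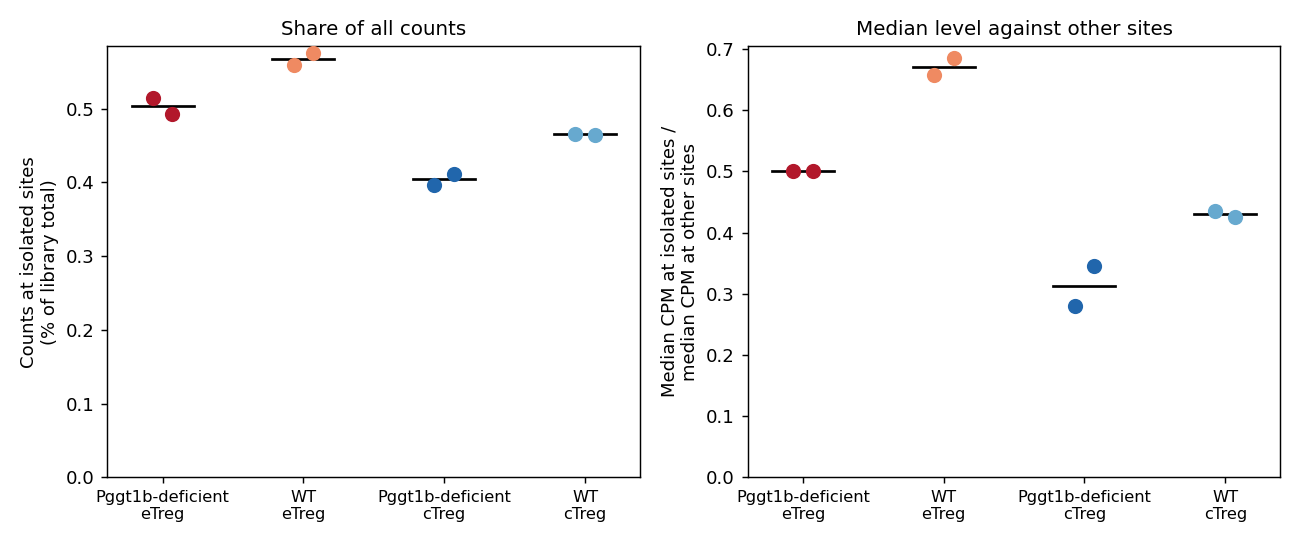
Left, the percentage of a library's counts that lie in the 652 isolated sites; right, the median CPM of isolated sites divided by that of other sites; 1 point per library, bars at the mean of the 2 libraries of each group. In both panels WT eTreg is highest, at 0.559% and 0.576% of counts and at ratios of 0.658 and 0.685, and Pggt1b-deficient cTreg is lowest, at 0.397% and 0.411% and at 0.281 and 0.346.

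Isolated sites of up to 100 bp held 0.0705% and 0.0721% of counts in Pggt1b-deficient eTreg, 0.0803% and 0.0893% in WT eTreg and, for cTreg, 0.052% and 0.0577% in Pggt1b-deficient and 0.0668% and 0.0617% in WT libraries. The 27 widest members held 0.287% and 0.268% in Pggt1b-deficient eTreg and 0.285% and 0.278% in WT eTreg libraries, against 0.222% and 0.228% in Pggt1b-deficient cTreg and 0.247% and 0.249% in WT cTreg libraries. In the widest class the 2 eTreg groups overlapped and both stood above both cTreg groups. Wide sites elsewhere in the genome also held a larger share in eTreg, with 47.9% and 47.4% of counts in Pggt1b-deficient eTreg and 47.1% and 46.2% in WT eTreg libraries, against 45.1% and 45.4% in Pggt1b-deficient cTreg and 44.9% and 45.5% in WT cTreg libraries. Narrow sites elsewhere did not show an eTreg excess: other sites of up to 100 bp held 7.34% and 7.38% of counts in Pggt1b-deficient eTreg and 7.37% and 7.77% in WT eTreg libraries, against 7.87% and 7.98% in Pggt1b-deficient cTreg and 8.09% and 7.88% in WT cTreg libraries.

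Counted over all 652 members with no filter, Pggt1b-deficient eTreg was the group with the highest mean CPM at 124, WT eTreg at 364, Pggt1b-deficient cTreg at 60 and WT cTreg at 104. The WT eTreg share, 55.8%, compares with 32.6% of other sites. The deepest library, replicate 2 of WT eTreg, was the highest single library at 198 members (30.4%), against 14.5% of other sites. The part of depth in this result was not tested. The 2 shallowest libraries, those of Pggt1b-deficient eTreg, were the highest at 96 and 94 members.

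A site was then tested with edgeR's quasi-likelihood test on the counts of all sites, with Benjamini-Hochberg adjustment over the 75352 sites that passed a filter on low counts, and called at an adjusted p under 0.05. The filter kept 581 isolated sites (89.1%) and 94.5% of other sites. The 71 members left out had a median width of 36 bp and levels of at most 0.923 CPM. Because a weak site can pass that filter through its highest group alone, the direction over all 652 members is given beside each count of calls. The 652 include the 581 tested, so this direction does not remove such sites and is no separate check. The list of sites may itself favour those that are high in a deep library, which was not tested.

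In WT cells, more isolated sites were higher than lower in eTreg against cTreg cells. Of the 581 tested, 185 were higher and 64 lower in WT eTreg than in WT cTreg, or 31.8% and 11%, where 13.8% of all tested sites were higher and 14.9% lower. In all 42.9% of the members were called, against 28.7% of all tested sites. The median log2 fold change was 0.48 at isolated sites and 0.00 over all tested sites. Over all 652 members, mean CPM was higher in WT eTreg at 457 and lower at 195 (70.1% and 29.9%), against 50.4% and 49.6% of other sites. Summed CPM of the members was higher in WT eTreg on 19 of 19 chromosomes, by ratios of 1.02 on chromosome 5 to 1.69 on chromosome 4. The libraries of the 2 groups did not overlap on 17 of them. Sums at the other sites of each chromosome are not given here, so whether this is particular to isolated sites cannot be told. Strong sites weigh most in such sums: the 10 strongest members held 31.2% to 39.1% of the isolated counts of a library. The number called was 143 without replicate 2 of WT eTreg (median log2 fold change 0.39), 146 without replicate 2 and 159 without replicate 1 of WT cTreg, and was 158 with DESeq2.

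The 5 members with the largest named rise in WT eTreg cells had 0.805 CPM or less in each WT cTreg library. The site chr16:52851398-52851432, only 34 bp wide, had 7.04 and 9.71 CPM in WT eTreg and 0 and 0.317 CPM in WT cTreg libraries, a 53.7-fold ratio (95% Clopper-Pearson interval 14.5 to 449, with every 2 counts as 1 observation, for counting error only). Pggt1b-deficient eTreg libraries had 1.79 and 0 CPM there and Pggt1b-deficient cTreg libraries 0.449 and 0.414 CPM. High signal was thus seen in the 2 WT eTreg libraries, with no overlap with the other 6.

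The strongest of the 5 in level was chr4:16667056-16667244, whose next site downstream lay 2571 kb away, with 12.2 and 15 CPM in WT eTreg against 0.805 and 0.317 CPM in WT cTreg libraries (log2 fold change 4.58 ± 0.40 SE, edgeR adjusted p = 8.71e-12). In Pggt1b-deficient cells it had 4.48 and 1.19 CPM in eTreg against 0.449 and 0.552 CPM in cTreg libraries. The other 3 named rises, chr14:59182203-59182294, chr2:114238947-114239027 and chr1:134762257-134762314, had 2 to 5 counts in all over the WT cTreg libraries, and their ratios were 47.6-fold (8.14 to 1917), 38.7-fold (6.56 to 1568) and 24.3-fold (7.27 to 150). These wide intervals show how little the WT cTreg counts constrain the size of the rise.

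The 5 named members that were lower in WT eTreg cells kept some counts there. At chr1:151808227-151808461 the WT eTreg libraries had 0.649 and 0.407 CPM against 4.83 and 5.39 CPM in WT cTreg (log2 fold change -3.28 ± 0.46 SE, edgeR adjusted p = 4.44e-07). Its neighbour upstream lay 3153 kb away. Pggt1b-deficient eTreg libraries had 2.69 and 4.74 CPM at this site and Pggt1b-deficient cTreg libraries 3.14 and 4.14 CPM, all above both WT eTreg libraries. The strongest of the named falls in level, chr17:75636872-75637054, had 0.927 and 1.09 CPM in WT eTreg against 7.01 and 7.52 CPM in WT cTreg (log2 fold change -2.82 ± 0.35 SE, edgeR adjusted p = 4.58e-08). The other named falls were chr15:49731551-49731623, chr16:48300184-48300263 and chr14:115649889-115649974, with log2 fold changes of -3.23 ± 0.49, -2.89 ± 0.57 and -2.68 ± 0.54 SE. All 10 named sites of this comparison stayed called under every alternative run on them.

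In Pggt1b-deficient cells the subset difference had the same direction but fewer calls. Of 581 tested, 59 were higher and 12 were lower in the eTreg than in the cTreg cells (10.2% and 2.07%), where 4.59% of all tested sites were higher and 4.52% lower. Both directions came to 12.2% of the members and 9.12% of all tested sites. The median log2 fold change was 0.41, against -0.06 over all tested sites. Mean CPM was higher at 413 and lower at 230 of the 652 members (63.3% and 35.3%), against 45.1% and 54.6% of other sites. Summed CPM of the members was higher on 17 of 19 chromosomes, with no overlap of the libraries on 14 of them, again with no sums at other sites beside it. Without replicate 1 of Pggt1b-deficient eTreg the number called was 38 and the median 0.15, and without replicate 2 of that group 78 and 0.26. Without replicate 1 of Pggt1b-deficient cTreg 37 were called, and 40 when only these 4 libraries were fitted. The lower calls varied most: there were 38 higher and 2 lower in that fit, 47 and 1 with limma-voom, 53 and 5 with DESeq2 and 69 and 6 with an intensity-dependent (loess) scaling added after the data were seen.

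Among the rises named for their fold change between the Pggt1b-deficient subsets, the strongest in level was chr9:120249169-120249649, 480 bp wide. It had 61.4 and 35 CPM in Pggt1b-deficient eTreg against 10.5 and 9.94 CPM in Pggt1b-deficient cTreg libraries (log2 fold change 2.26 ± 0.21 SE, edgeR adjusted p = 5.95e-10). In WT cells the same site had 34.8 and 36 CPM in eTreg against 17.1 and 16.4 CPM in cTreg libraries. It was high in all 4 eTreg libraries, with no overlap with cTreg.

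Like it, chr9:105789938-105790157 had 16.1 and 11.9 CPM in Pggt1b-deficient eTreg against 2.36 and 2.76 CPM in Pggt1b-deficient cTreg (log2 fold change 2.48 ± 0.35 SE, edgeR adjusted p = 4.41e-06), and 24.4 and 32.7 CPM in WT eTreg against 6.12 and 6.97 CPM in WT cTreg. The sites chr13:46254728-46255091, chr6:117381612-117381861 and chr13:107482009-107482151 completed the named rises, with log2 fold changes of 2.65 ± 0.43, 2.41 ± 0.35 and 1.99 ± 0.35 SE. All 5 stayed called under every alternative run on them.

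Of the 5 named falls, 1 stayed called throughout: chr5:72294712-72294929 had 7.18 and 14.2 CPM in Pggt1b-deficient eTreg against 33.4 and 33.4 CPM in Pggt1b-deficient cTreg (log2 fold change -1.70 ± 0.26 SE, edgeR adjusted p = 2.09e-05). Its WT levels were 6.21 and 8.21 CPM in eTreg against 26.5 and 33.7 CPM in cTreg, so eTreg libraries of both genotypes lay below all cTreg libraries. The other 4 rested on 2 to 6 counts over the Pggt1b-deficient eTreg libraries and lost their call under 1 to 13 of 15 alternatives. They were chr16:48300184-48300263, chr19:17072542-17072755, chr5:92243516-92243669 and chr2:117833868-117833970, at 9.81-fold (1.66 to 397), 5.29-fold (1.73 to 26.3), 5.13-fold (1.68 to 25.5) and 3.55-fold (1.14 to 17.9) lower. The first lost it without replicate 2 of Pggt1b-deficient eTreg (edgeR adjusted p = 0.0812) or replicate 1 of Pggt1b-deficient cTreg (0.144). The third lost it without replicate 1 of either group (edgeR adjusted p = 0.168 and 0.169), and the fourth without any 1 of the 8 libraries (0.0539 to 0.135). With limma-voom all 4 lost it (adjusted p = 0.0957 to 0.245).

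The 2 subset comparisons set different libraries against each other. Both came from 1 fit of all 8 libraries, with a shared filter and estimate of spread, so the 2 lists are not independent. Of the 59 members higher in Pggt1b-deficient eTreg, 40 (67.8%) were also among the 185 higher in WT eTreg, of which they made up 21.6%. Of the 12 lower members, 7 (58.3%) were among the 64 lower in WT eTreg (10.9% of those). Over all tested sites the shares were similar: 65% of the sites higher and 63.1% of those lower in Pggt1b-deficient eTreg were called in the same direction in WT, or 21.6% and 19.2% of the WT lists. No member was called in opposite directions. Such calls were rare over all tested sites too, at 1.18% of the sites higher and 0.968% of those lower in Pggt1b-deficient eTreg. The 185 members were chosen for a high level in WT eTreg, so that group's rank among the 4 follows from the choice. There the median CPM was 2.01 in Pggt1b-deficient eTreg, 5.2 in WT eTreg and, for cTreg, 0.794 in Pggt1b-deficient and 1.08 in WT cells, and the median log2 fold change between the Pggt1b-deficient subsets was 1.02. At the 64 lower members it was -0.75, and -0.48 with the loess scaling.

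The broad members that were called between subsets all changed in 1 direction. Of the 27 sites of 500 bp or wider, 14 were higher and 0 lower in WT eTreg than in WT cTreg, against 29.2% higher and 12.3% lower of other sites of that width. Between the Pggt1b-deficient subsets, too, 14 had higher accessibility in eTreg and 0 had lower, against 13.8% and 6.06% of other wide sites. Their median log2 fold change was 0.22 in WT and 0.33 in Pggt1b-deficient cells.

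The 10 strongest members were all in this class and held 31.2% to 39.1% of the isolated counts of a library. The strongest was chr9:19426272-19426920, 762.4 kb from its nearest neighbour, with 274 and 235 CPM in Pggt1b-deficient eTreg, 227 and 212 in WT eTreg and, for cTreg, 209 and 203 in Pggt1b-deficient and 219 and 230 in WT libraries. The most variable was chr1:113760617-113761916, with 232 and 194 CPM in Pggt1b-deficient eTreg, 265 and 267 in WT eTreg and, for cTreg, 109 and 102 in Pggt1b-deficient and 159 and 167 in WT libraries. Its 4 groups did not overlap, and it was called in all 4 pairwise comparisons, with edgeR log2 fold changes of -0.31 ± 0.08, -0.63 ± 0.08, 0.71 ± 0.07 and 1.02 ± 0.09 SE (adjusted p = 0.0112, 3.21e-06, 1.23e-09 and 2.06e-10) for the deficiency in eTreg, the deficiency in cTreg, the subset in WT and the subset in Pggt1b-deficient cells.

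By contrast chr10:10868918-10869889 ran from 163 to 182 CPM over all 8 libraries, and chr14:61791301-61792452 from 169 to 194 CPM, and neither was called in a pairwise comparison. The site chr11:17852911-17854089 was called higher in Pggt1b-deficient eTreg, with 251 and 209 CPM against 175 and 170 CPM in WT eTreg (log2 fold change 0.42 ± 0.08 SE, edgeR adjusted p = 6.18e-04). The remaining 5, from chr3:154756001-154757013 to chr6:25758704-25759796, had levels of 132 to 196 CPM, and at each of them the lowest library was one of Pggt1b-deficient cTreg.

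**Figure D3:**
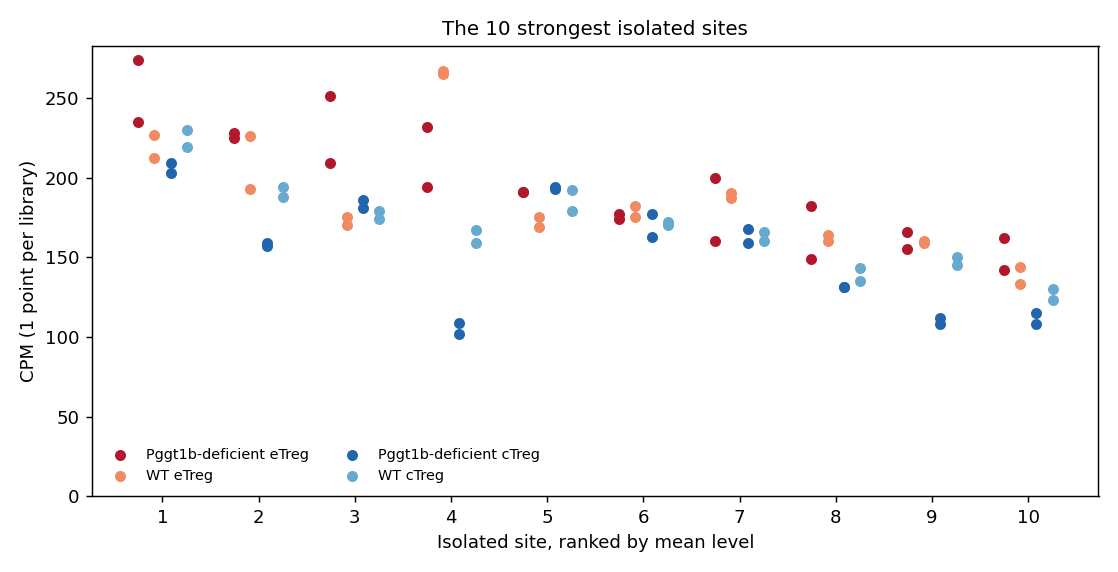
CPM in each of the 8 libraries (1 point per library, coloured by group) at the 10 isolated sites with the highest level, ranked by level on the x axis. At rank 4, chr1:113760617-113761916, the groups separate, with 265 and 267 CPM in WT eTreg and 109 and 102 CPM in Pggt1b-deficient cTreg; at rank 6 all 8 libraries lie between 163 and 182 CPM.

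More isolated sites were lower than higher in Pggt1b-deficient cells, in both subsets. In eTreg cells 24 members were higher and 65 lower in Pggt1b-deficient than in WT cells (4.13% and 11.2% of 581), where 4.66% of all tested sites were higher and 6.43% lower. That is 15.3% of the members and 11.1% of all tested sites in either direction. The median log2 fold change was -0.46, against -0.09 over all tested sites, and mean CPM was lower at 447 and higher at 203 of the 652 members (68.6% and 31.1%), against 56.2% and 43.7% of other sites. Isolated sites were weaker, and among tested sites of up to 1.48 CPM the median was -0.49 at other sites too, and -0.99 at isolated sites. The part of level in this difference was not tested. Under the loess scaling the median of all sites moved to 0.02 and that of isolated sites to -0.20, and 27 were higher and 43 lower, so the share of higher calls was 38.6% in place of 27%. Over all tested sites that share was 50.8% with the loess scaling and 42% without it. The number called was 54 with DESeq2, 41 with limma-voom, 40 without replicate 2 of WT eTreg and 49 without replicate 1 of Pggt1b-deficient eTreg.

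Among members with a mean count of at least 20 over the 4 eTreg libraries, the largest gain stayed called under every alternative run on it. The site chr6:16310244-16310309, 65 bp wide and 138.7 kb from its nearest neighbour, had 65.9 and 85.3 CPM in Pggt1b-deficient eTreg against 14 and 12.8 CPM in WT eTreg libraries. The cTreg libraries had 13.8 and 29.7 CPM in Pggt1b-deficient and 21.6 and 15.3 CPM in WT cells, so the Pggt1b-deficient eTreg libraries stood above the other 6. The log2 fold change in eTreg was 2.49 ± 0.22 SE (edgeR adjusted p = 1.86e-10, at most 2.25e-06 over 15 alternatives). Counts behind it were 147 and 144 in Pggt1b-deficient eTreg against 151 and 188 in the deeper WT eTreg libraries, so it is the CPM and not the raw count that is higher in Pggt1b-deficient eTreg. The cTreg libraries had 123 and 215 counts in Pggt1b-deficient and 268 and 193 in WT cells. At 32.3 CPM it was also the strongest of the 417 members of up to 100 bp, where the next reached 16.9 CPM.

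The other named gains were smaller and less stable. The limit of 20 counts was reached by 8 of the 24 gains but by 57 of the 65 losses, so the named gains do not stand for all gains. Some called gains below it had larger folds, such as chr4:93187622-93187724 (log2 fold change 2.33 ± 0.44 SE, edgeR adjusted p = 3.19e-04). The site chr13:107482009-107482151 had 23.8 and 14.8 CPM in Pggt1b-deficient eTreg against 5.84 and 6.72 CPM in WT eTreg (log2 fold change 1.64 ± 0.33 SE, edgeR adjusted p = 7.11e-04, and 0.0857 without replicate 1 of Pggt1b-deficient eTreg). It was also the member named above as higher in Pggt1b-deficient eTreg than in Pggt1b-deficient cTreg. The gains at chr3:61048174-61048301, chr19:8326698-8326769 and chr5:98061950-98062131 had log2 fold changes of 1.37 ± 0.42, 1.23 ± 0.41 and 1.01 ± 0.29 SE. The first lost its call without replicate 1 or 2 of WT eTreg or replicate 1 of Pggt1b-deficient eTreg (edgeR adjusted p = 0.0962, 0.081 and 0.253), and the second without the same libraries (0.138, 0.134 and 0.62). When only the eTreg libraries were fitted the first was not called (edgeR adjusted p = 0.0612), nor was the second with DESeq2 (0.103) or limma-voom (0.0534). The third lost it without replicate 1 of WT eTreg or replicate 2 of Pggt1b-deficient eTreg (edgeR adjusted p = 0.146 and 0.197).

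Ranking by fitted fold change puts sites with no count in 1 group first. All 5 named losses in eTreg were such sites, with no count in either Pggt1b-deficient eTreg library, which follows from the ranking. Only a lower bound on the fold can be given for these losses, against a floor of 6 counts (3 pairs) over the group. The largest, chr18:41746268-41746405, had 5.28 and 5.63 CPM in WT eTreg libraries and was at least 3.58-fold lower in Pggt1b-deficient eTreg (edgeR adjusted p = 7.62e-04). Its cTreg libraries had 0 and 0.276 CPM in Pggt1b-deficient and 0.483 and 0.238 CPM in WT cells, so signal above 1 CPM was seen in WT eTreg alone.

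The pattern was alike at chr14:59182203-59182294, with 0 CPM in both Pggt1b-deficient eTreg libraries against 3.89 and 3.73 CPM in WT eTreg, and at most 0.276 CPM in any cTreg library (at least 2.48-fold lower). At chr14:7252031-7252082 the bound was at least 2.3-fold lower, at chr17:15336184-15336285 at least 2.25-fold and at chr3:63413858-63413922 at least 2.04-fold. Calls were lost without replicate 1 of Pggt1b-deficient eTreg at chr14:59182203-59182294 (edgeR adjusted p = 0.0527), chr17:15336184-15336285 (0.0543) and chr3:63413858-63413922 (0.096). The last was also lost without replicate 2 of WT eTreg (edgeR adjusted p = 0.0814), and the loess scaling ended the calls at chr14:59182203-59182294 (0.0803) and chr3:63413858-63413922 (0.11). At chr14:7252031-7252082 DESeq2 gave no adjusted p, and so no call.

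In cTreg cells, too, most of the members called were lower with the deficiency. Of 581 members tested, 2 were higher and 29 lower in Pggt1b-deficient than in WT cTreg (0.344% and 4.99%), where 0.53% of all tested sites were higher and 1.69% lower. Either way, 5.34% of the members and 2.21% of all tested sites were called. The median log2 fold change was -0.41, against -0.03 over all tested sites. Mean CPM was lower at 465 and higher at 184 of the 652 members (71.3% and 28.2%), against 53.8% and 46.1% of other sites. The count rested on single libraries: 8 and 6 sites were called without replicates 1 and 2 of WT cTreg, 6 without replicate 1 of Pggt1b-deficient cTreg and 10 with DESeq2. More were called, 47, without replicate 1 of Pggt1b-deficient eTreg, and 44 without both Pggt1b-deficient eTreg libraries, a setting added after the data were seen. With limma-voom 8 were higher and 36 lower, and when only the 4 cTreg libraries were fitted 6 were higher and 40 lower.

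The named cTreg loss with the largest fold was chr8:63111397-63111623, with 1.12 and 1.1 CPM in Pggt1b-deficient cTreg against 3.79 and 6.81 CPM in WT cTreg (log2 fold change -2.24 ± 0.40 SE, edgeR adjusted p = 5.84e-04, and 0.0798 without replicate 2 of WT cTreg). Its previous neighbour was 2831 kb away. In eTreg it had 6.28 and 4.74 CPM in Pggt1b-deficient against 13.1 and 16 CPM in WT libraries, so Pggt1b-deficient libraries lay below WT libraries in both subsets.

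A further loss was seen at chr16:70007264-70007442, the strongest of the 5 in level, which had 6.06 and 3.86 CPM in Pggt1b-deficient cTreg against 18.6 and 11.4 CPM in WT cTreg (log2 fold change -1.57 ± 0.29 SE, edgeR adjusted p = 9.43e-04, and 0.166 without replicate 1 of WT cTreg). The losses at chr2:140497152-140497327, chr7:36776329-36776393 and chr12:72678446-72678600 had log2 fold changes of -2.21 ± 0.49, -2.14 ± 0.52 and -1.46 ± 0.38 SE. Each lost its call without replicate 1 of WT cTreg (edgeR adjusted p = 0.203, 0.389 and 0.279) and without replicate 1 of Pggt1b-deficient cTreg (0.236, 0.198 and 0.522). The call at chr7:36776329-36776393 was lost also without replicate 2 of Pggt1b-deficient cTreg (edgeR adjusted p = 0.105). That at chr12:72678446-72678600 was lost without replicate 2 of WT cTreg (0.124) or of WT eTreg (0.051) and with DESeq2 (0.0599).

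The 2 gains in cTreg were chr16:77331384-77331438, with 6.39 and 4.42 CPM in Pggt1b-deficient against 1.45 and 1.66 CPM in WT cTreg (log2 fold change 1.80 ± 0.49 SE, edgeR adjusted p = 0.039), and chr3:159387675-159387761, with 10.3 and 7.73 CPM in Pggt1b-deficient against 4.99 and 3.17 CPM in WT cTreg (1.15 ± 0.30 SE, edgeR adjusted p = 0.0315). Without any 1 of the 4 cTreg libraries the first was not called (edgeR adjusted p = 0.0603 to 0.392). The second was not called without replicate 1 or 2 of WT cTreg (0.0887 and 0.499), without replicate 1 of Pggt1b-deficient cTreg (0.397) or with DESeq2 (0.0907).

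The 2 genotype comparisons also set different libraries against each other but came from the same fit, so their lists are not independent either. Of the 29 members lower in Pggt1b-deficient cTreg, 10 (34.5%) were also among the 65 lower in Pggt1b-deficient eTreg (15.4% of those), where over all tested sites 56.5% of those lower in cTreg were also lower in eTreg (14.8% of the eTreg list), and 1 of the 2 higher members was among the 24 higher in Pggt1b-deficient eTreg. None was called in opposite directions. Over all tested sites, too, only 0.63% of those lower and 0.501% of those higher in Pggt1b-deficient cTreg had the opposite call in eTreg. Whether the effect of the deficiency differed between subsets was tested as an interaction, with 10 of 581 members called, 6 higher and 4 lower (1.03% and 0.688%), where 0.957% of all tested sites were higher and 0.555% lower. The called share was 1.72% of the members and 1.51% of all tested sites. The number called was 4 without either replicate of WT cTreg, 6 without replicate 2 of WT eTreg, 18 without replicate 2 of Pggt1b-deficient eTreg and 5 with DESeq2.

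Median differences were larger among sites far from any other. For WT eTreg against WT cTreg, the median log2 fold change was 0.03 at sites within 1 kb of another, -0.12 at 1 to 5 kb, -0.03 at 5 to 20 kb, 0.09 at 20 to 50 kb and 0.26 at 50 to 100 kb. It was 0.43 at members 100 to 200 kb from another site, 0.54 at 200 to 500 kb and 0.35 beyond 500 kb. The sites 50 to 100 kb away, which are not members, thus lay between crowded and isolated sites.

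For Pggt1b-deficient against WT cTreg the medians were -0.03 within 1 kb, -0.19 at 50 to 100 kb, -0.37 at 100 to 200 kb, -0.47 at 200 to 500 kb and -0.65 over 500 kb, where 61 sites were tested. For Pggt1b-deficient against WT eTreg the bins over 50 kb had -0.33, -0.48, -0.48 and -0.26, so the most distant bin was nearer to 0 than the bins before it. The comparisons share libraries, so their curves are not independent of each other. Median level differed with distance too, with 4.34 CPM within 1 kb and 2.1 CPM over 500 kb.

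**Figure D4:**
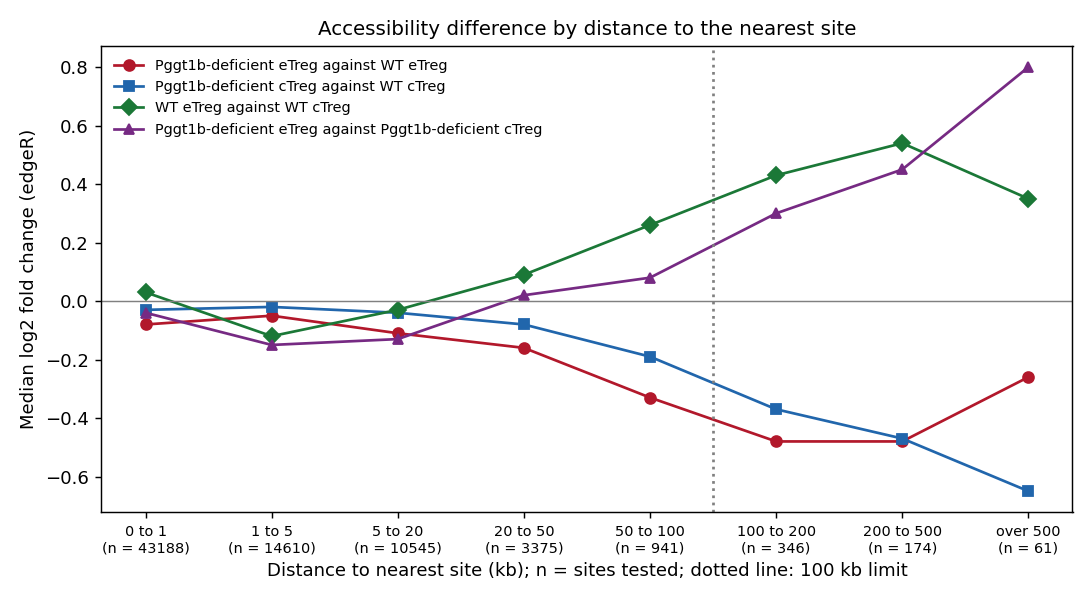
Median log2 fold change (y axis, edgeR) of tested sites in bins of distance to the nearest site (x axis, kb, with the number of sites tested), 1 line per comparison, with a dotted line at the 100 kb limit. Both eTreg against cTreg lines turn upward beyond 20 kb, to 0.54 in WT at 200 to 500 kb and 0.80 in Pggt1b-deficient cells over 500 kb, and both Pggt1b-deficient against WT lines turn downward.

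Differences between isolated and other sites were also seen among sites of similar level. All tested sites of chromosomes 1 to 19 with a neighbour on both sides were split at 1.48, 2.85, 5.87 and 15.7 CPM into 5 classes. From the lowest class to the highest, 32.5%, 26.2%, 34.1%, 30.5% and 41.1% of isolated sites were higher in WT eTreg than in WT cTreg, against 10.6%, 10.1%, 11.8%, 14.1% and 21.8% of other sites. In the same order 1.03%, 1.34%, 1.63%, 16.9% and 23.2% of isolated sites were lower in Pggt1b-deficient cTreg than in WT cTreg. Of other sites 0.194%, 0.414%, 0.991%, 2.58% and 4.13% were. The 2 highest classes held 59 and 56 members, and each of the others had 2 members called lower. For Pggt1b-deficient against WT eTreg the median log2 fold changes were -0.99, -0.35, -0.22, -0.55 and -0.12 at isolated sites, against -0.49, -0.11, -0.04, -0.05 and -0.03 at other sites. These values are descriptions of these sites and carry no test, since sites of 1 library are not replicates.

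**Figure D5:**
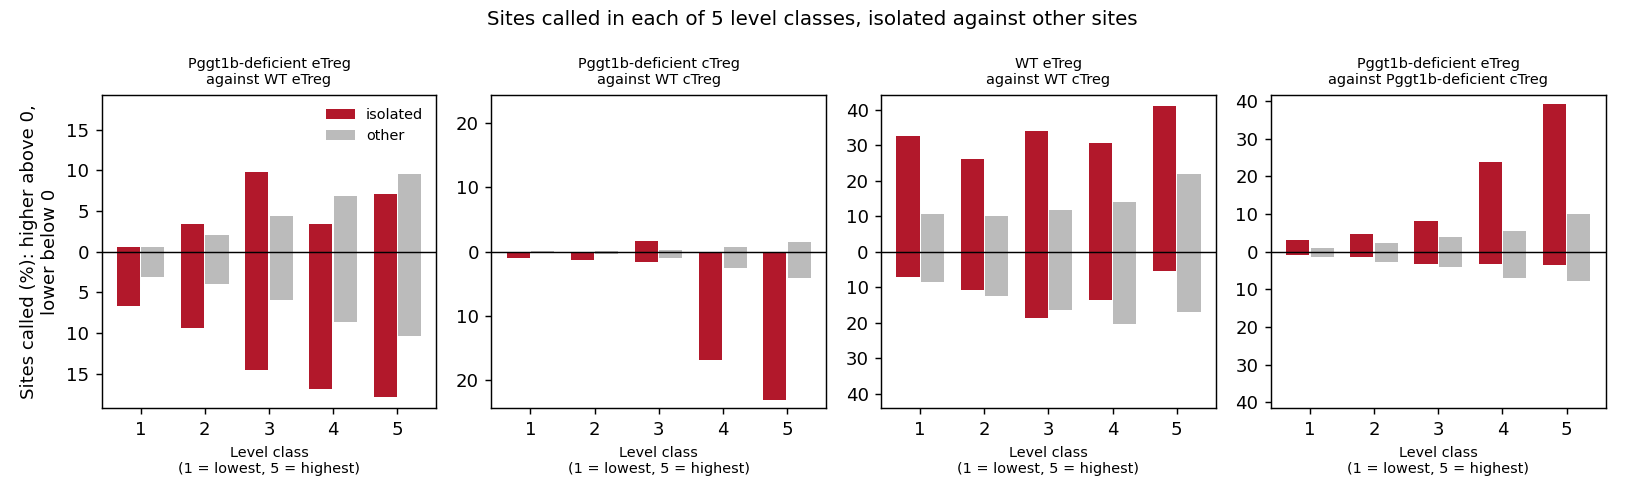
Percentage of isolated (red) and other (grey) tested sites called higher (above 0) or lower (below 0) in each of 5 level classes (x axis, 1 = lowest), 1 panel per comparison with its own y axis. For WT eTreg against WT cTreg the isolated bars above 0 are taller in every class, 26.2% to 41.1% against 10.1% to 21.8%.

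The 5 most distant members had levels of 0.426 to 10.2 CPM. The site chr14:112074003-112074164, 3117 kb from its nearest neighbour, had 6.28 and 9.48 CPM in Pggt1b-deficient eTreg, 5.75 and 5.29 in WT eTreg and, for cTreg, 4.26 and 3.73 in Pggt1b-deficient and 3.38 and 4.2 in WT libraries. All eTreg libraries lay above all cTreg libraries, but no comparison passed the test (edgeR adjusted p = 0.144 to 0.955). The next, chr2:97306464-97306466, is listed as 2 bp wide with a level of 0.426 CPM.

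Among the other 3 of the 5 most distant members, chr16:81200801-81201084 was lower in Pggt1b-deficient cTreg, with 3.59 and 1.93 CPM against 7.49 and 6.89 CPM in WT cTreg (log2 fold change -1.35 ± 0.33 SE, edgeR adjusted p = 0.0175). At chr12:63095368-63095566 the libraries of a group differed more than the groups did, with 18.2 and 8.28 CPM in Pggt1b-deficient cTreg against 6.85 and 15.8 CPM in WT cTreg. The last, chr19:50259883-50259949, ran from 0 to 3.56 CPM over the libraries and passed no test.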

How the data were processed

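The authors deposited 1 table of raw whole-number counts per site for 8 ATAC-seq libraries. Tools named in the submitters' processing notes are MACS2 2.1.1, bedtools, Trimmomatic 0.36, SAMtools and Picard 2.9.4, and the build is mm9 (NCBIM37). Not given in the sources used here are the aligner, any shift of read ends, the threshold for peaks, pooling of libraries before peak calling, and the counting unit (reads or fragments). Even values made up 66.4% to 78.2% of counts from 1 to 10 at isolated sites, so many counts come in pairs. Starts may be 0-based or 1-based, an uncertainty of 1 base.

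Groups came from sample titles. Distances between sites were gaps from the end of one to the start of the next. Counts of all sites were fitted in R 4.3.3 with edgeR 4.0.16 (filterByExpr, TMM, 1 mean per group over 8 libraries, quasi-likelihood tests, two-sided, Benjamini-Hochberg adjustment), with 5 contrasts: the deficiency in each subset, the subset in each genotype, and their interaction. CPM values are TMM scaled. Shares of counts per library were compared with exact permutation tests (SciPy 1.17.1). Where a group had no count, the fold was taken against a floor of 6 counts over the group. With 1 to 6 counts, ratios carry 95% Clopper-Pearson intervals. Intervals and floors cover counting error only.

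Sites named were, per contrast, the 5 called members with the largest absolute fold change in each direction and 20 or more counts on average in the compared libraries; the 10 strongest; the 5 most distant; and the 3 nearest to the limit on each side. The members, lists and tests were chosen with earlier results of these data known. Alternatives were DESeq2 1.42.0, limma-voom (limma 3.58.1), other size factors, no filter, only the libraries compared, a replicate block, limits of 50 and 200 kb, another count total, and leaving out each library. The procedure was tested on simulated counts.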

Additional observations from a re-analysis of the deposited data

Results flagged for a closer look

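At 10 isolated sites the effect of Pggt1b deficiency differed between eTreg and cTreg cells (edgeR quasi-likelihood interaction, Benjamini-Hochberg adjusted p under 0.05), or 1.72% of the members, close to the 1.51% of all tested sites. Values are the log2 fold change of Pggt1b-deficient against WT in eTreg minus that in cTreg, and all are fitted values that depend on few counts where a group is near 0. This difference was positive at chr6:16310244-16310309 (2.28), chr9:120249169-120249649 (1.18), chr6:133054952-133055940 (0.44), chr1:151808227-151808461 (3.28), chr4:93187622-93187724 (1.99) and chr7:122877768-122877814 (6.69). It was negative at chr14:32747125-32747407 (-4.27), chr15:72153742-72153851 (-3.73), chr11:32852367-32852561 (-3.08) and chr12:40578289-40578687 (-3.01). A positive value need not mean a gain in eTreg. At chr6:133054952-133055940 the deficiency was called in cTreg (log2 fold change -0.43) and not in eTreg (0.01). The same held at chr9:120249169-120249649 (-0.70 in cTreg and 0.48 in eTreg).

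The first, chr6:16310244-16310309, was the sole one of the 10 to stay called under every alternative run on it (edgeR adjusted p = 8.69e-06, at most 0.021). Its mean was 75.6 CPM in Pggt1b-deficient eTreg and 13.4 CPM in WT eTreg, against 21.7 CPM in Pggt1b-deficient and 18.4 CPM in WT cTreg. Its raw counts ran only from 123 to 268 over the 8 libraries, whose totals ran from 1664702 to 14974253. Every alternative scaled counts to library size, so the part of depth in this call was not tested. At chr12:40578289-40578687 the means were 3.72 CPM in Pggt1b-deficient eTreg and 18.1 CPM in WT eTreg, against 1.34 CPM in Pggt1b-deficient and 0.842 CPM in WT cTreg (edgeR adjusted p = 0.0115; 0.105 without replicate 2 of WT cTreg and 0.119 without replicate 1 of Pggt1b-deficient cTreg). At chr14:32747125-32747407 they were 0.593 and 8.72 CPM in Pggt1b-deficient and WT eTreg, against 2.75 and 2.35 CPM in Pggt1b-deficient and WT cTreg (edgeR adjusted p = 0.00482; 0.0562 without replicate 1 of Pggt1b-deficient eTreg). At chr9:120249169-120249649 the call was lost without replicate 1 of WT cTreg (edgeR adjusted p = 0.0527) or of Pggt1b-deficient eTreg (0.213).

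The other 6 lost their call more easily, leaving aside DESeq2, which gave no adjusted p for the interaction at some of them and at chr14:32747125-32747407. At chr1:151808227-151808461 it was lost without replicate 2 of WT cTreg, WT eTreg or Pggt1b-deficient eTreg (edgeR adjusted p = 0.0785, 0.0833 and 0.0723). At chr11:32852367-32852561 any library but replicate 2 of Pggt1b-deficient cTreg decided it (edgeR adjusted p = 0.066 to 0.446 without it), at chr4:93187622-93187724 any but replicate 1 of Pggt1b-deficient eTreg (0.0695 to 0.178), and at chr6:133054952-133055940 any but replicate 2 of Pggt1b-deficient eTreg (0.112 to 0.22). At chr15:72153742-72153851 any but replicate 1 of Pggt1b-deficient cTreg and replicate 2 of Pggt1b-deficient eTreg decided it (edgeR adjusted p = 0.0542 to 0.313), and at chr7:122877768-122877814 any but replicate 2 of both Pggt1b-deficient groups (0.0638 to 0.156). At chr7:122877768-122877814, named because it was called although its mean count was below 20, Pggt1b-deficient eTreg held 8 counts over both libraries and WT eTreg 1, against 6 counts in Pggt1b-deficient cTreg and 26 in WT cTreg.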

How the results depend on the processing

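Of 688 alternative fits that gave an adjusted p at named sites, 585 kept the call and 103 lost it, with no change of direction. Of those 103, 78 left out 1 library. DESeq2 gave a fold change but no adjusted p, and so no call, at some named sites. Those fits are not among the 688, where DESeq2 kept 31 calls and lost 5, so the tally leans towards kept calls. Moving the distance limit changed the counts of members called: at 50 and 200 kb they were 206 and 31 for the deficiency in eTreg, 53 and 16 for the deficiency in cTreg, 541 and 92 for the subset in WT, 180 and 34 for the subset without Pggt1b, and 20 and 1 for the interaction, as members numbered 1673 and 267. DESeq2 called 54, 10, 158 and 5 for the deficiency in eTreg, the deficiency in cTreg, the subset in WT and the interaction, limma-voom 41 for the deficiency in eTreg, and a fit of only the libraries compared 40 for the subset in Pggt1b-deficient cells. Leaving out each library gave 40 to 88, 6 to 47, 143 to 287, 37 to 78 and 4 to 18 calls for the 5 contrasts in the order of the limits above. In the same settings the eTreg minus cTreg share of counts was 0.0876 to 0.115 points, the Pggt1b-deficient minus WT share -0.0828 to -0.0425 points and the ratio of median levels 0.449 to 0.507. The causes were not tested. Deviations from group means of same-numbered libraries correlated at -0.0164 to 0.057. Counting noise at low counts can hide a pairing, so whether libraries were paired cannot be told from these values. With the replicate block 80, 28, 232, 68 and 8 members were called. The calls at 5 named sites were lost in that fit, at chr19:8326698-8326769 for the deficiency in eTreg, chr16:77331384-77331438 for that in cTreg, chr2:117833868-117833970 for the subset without Pggt1b, and chr6:133054952-133055940 and chr11:32852367-32852561 for the interaction (edgeR adjusted p = 0.0511 to 0.0637). Depth limits the Pggt1b-deficient eTreg libraries most.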
